A study of Mus musculus with 40 samples.

Results

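The promoters of 46 genes of the Wnt pathway were examined for H3K27me3 and H3K4me3, out of 21938 protein-coding genes. The genes were taken by family and by their place in the pathway, with no measured value in the rule: 18 Wnt ligands, 10 Frizzled receptors, 10 secreted antagonists, 5 genes of the R-spondin branch and 3 mediators or targets of the signal (*Lef1*, *Tcf7* and *Axin2*). The cells were primary oligodendrocyte precursor cells (OPCs), the dividing cells that give rise to oligodendrocytes, grown in proliferation medium from brains of AMGFAP-Cre;K27M litters at postnatal days 5 to 7. In K27M mice a knock-in at *H3-3a* is switched on by Cre under a GFAP promoter (hGFAP-Cre in the study's methods) in neural stem and progenitor cells, so that these cells and all their descendants, OPCs included, make histone H3.3 with lysine 27 replaced by methionine. Controls were littermates, all mice were on an FVB background, and tissue was pooled by region and genotype before OPCs were panned on an antibody to PDGFRa. Each mark was profiled by ChIP-seq, which sequences the DNA bound to an antibody, in 2 control and 2 K27M cultures from the brainstem (59 and 61) and in 3 control and 3 K27M cultures from the telencephalon (59, 60 and 61, called cortex in some labels). This gave 20 libraries in 5 matched pairs.

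Wnt ligands are secreted, lipid-modified proteins that bind Frizzled receptors together with the co-receptors Lrp5 and Lrp6. Binding stabilizes beta-catenin, which enters the nucleus and works with Tcf and Lef factors, while other Frizzled signals act without beta-catenin. The Sfrp proteins, Frzb and Wif1 bind the ligands, the Dkk proteins block the co-receptors, and R-spondins acting through Lgr receptors keep Frizzled proteins at the cell surface. In the oligodendrocyte lineage, active Wnt signalling is known to hold back the differentiation of OPCs. H3K27me3 is placed by Polycomb repressive complex 2 over silent developmental genes, H3K4me3 marks promoters that are active or poised, and a promoter that carries both is called bivalent.

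The measure was the percentage of a gene's promoter bases that lay under peaks of a library, a promoter being the 2000 bp before and the 1000 bp after any annotated start. H3K27me3 peaks numbered 12715 to 64808 in the controls and 4739 to 15753 in K27M, and H3K4me3 peaks numbered 20961 to 31200 over all libraries. The telencephalon culture 59 had the fewest H3K27me3 peaks of both genotypes, so some of the results that rest on it are also given without it. Sequencing depth cannot be read from peak lists, and a gene without a peak can still hold signal under the caller's threshold. By the read totals that the study lists, both H3K27me3 libraries of telencephalon culture 59 had more reads than all other H3K27me3 libraries. For this mark, controls had more reads than their K27M partners in both pairs numbered 59 and, by the widest margin, telencephalon pair 61. They had fewer in telencephalon pair 60 and brainstem pair 61. The part of depth in the peak numbers was not tested. The OPC identity was checked with 6 genes (*Pdgfra*, *Cspg4*, *Olig1*, *Olig2*, *Sox10* and *Ptprz1*): all 6 had an H3K4me3 peak in every culture and none had an H3K27me3 peak in any control. Of 5 microglial genes, 4 had no H3K4me3 peak in any culture. The other, *P2ry12*, had one in some cultures and counted as H3K4me3 only in the telencephalon controls. Of 5 endothelial genes, *Pecam1* and *Cdh5* had neither an H3K4me3 peak in any culture nor an H3K27me3 peak in any control. *Kdr* and *Flt1* were bivalent in both regions and *Cldn5* in the telencephalon only. Markers of other lineages were not bare of H3K4me3, which was present in every culture at all 4 neuronal genes and at 2 of 5 astrocytic genes (*Slc1a2* and *Gja1*). It was also present in every culture at 1 of 4 pericyte and fibroblast genes, *Col1a1*, which had H3K4me3 only in the telencephalon controls. The astrocytic *Gfap* and the pericyte gene *Pdgfrb* were bivalent in the telencephalon controls and not in those of the brainstem. The part of other cells in the values was not tested.

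The sequences just upstream of 5 genes that the results turn on are printed so that their content of CpG dinucleotides, which mark many Polycomb targets, can be seen. They are the 250 bases before the RefSeq start (GRCm38.p6), 5′ to 3′ on the gene's strand, with each CpG in capitals. A RefSeq promoter was found for 31 of the 46 genes. *Dkk1*, a secreted antagonist, lies on chr19:30549497-30549746 (minus strand), and *Fzd7*, a receptor, on chr1:59481897-59482146 (plus strand). *Rspo4*, an R-spondin, lies on chr2:151842677-151842926 (plus strand), *Sfrp2*, a secreted antagonist, on chr3:83766071-83766320 (plus strand) and *Tcf7*, a beta-catenin partner, on chr11:52282596-52282845 (minus strand).
Dkk1: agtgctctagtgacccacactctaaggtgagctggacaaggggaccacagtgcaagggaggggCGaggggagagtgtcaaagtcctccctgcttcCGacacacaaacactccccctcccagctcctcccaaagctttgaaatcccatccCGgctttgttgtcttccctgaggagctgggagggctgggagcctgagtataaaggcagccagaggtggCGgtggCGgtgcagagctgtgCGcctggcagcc
Fzd7: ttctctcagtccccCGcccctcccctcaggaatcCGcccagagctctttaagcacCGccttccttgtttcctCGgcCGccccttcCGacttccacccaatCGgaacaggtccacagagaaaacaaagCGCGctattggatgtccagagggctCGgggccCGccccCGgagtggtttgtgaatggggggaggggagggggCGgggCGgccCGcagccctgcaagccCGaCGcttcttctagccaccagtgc
Rspo4: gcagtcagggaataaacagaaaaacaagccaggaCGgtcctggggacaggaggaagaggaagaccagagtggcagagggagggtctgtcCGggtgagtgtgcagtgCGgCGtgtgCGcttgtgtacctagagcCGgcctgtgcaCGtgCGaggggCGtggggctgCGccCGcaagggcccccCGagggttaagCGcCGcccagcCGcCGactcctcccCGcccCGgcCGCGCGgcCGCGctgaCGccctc
Sfrp2: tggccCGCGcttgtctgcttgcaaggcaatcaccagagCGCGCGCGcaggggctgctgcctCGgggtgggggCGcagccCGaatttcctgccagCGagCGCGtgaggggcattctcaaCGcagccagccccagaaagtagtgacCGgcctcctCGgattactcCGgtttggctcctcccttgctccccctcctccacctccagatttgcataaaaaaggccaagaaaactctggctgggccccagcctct
Tcf7: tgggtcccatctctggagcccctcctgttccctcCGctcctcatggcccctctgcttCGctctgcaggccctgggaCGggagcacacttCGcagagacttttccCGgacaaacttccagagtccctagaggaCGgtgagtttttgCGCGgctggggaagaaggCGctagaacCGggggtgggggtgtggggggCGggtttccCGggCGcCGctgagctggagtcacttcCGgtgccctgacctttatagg

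These windows held 6 CpGs in *Dkk1*, 15 in *Tcf7*, 16 in *Sfrp2*, 17 in *Fzd7* and 24 in *Rspo4*. *Tcf7* has another RefSeq start, and the 250 bases before it (chr11:52283015-52283264), which lie just outside the annotated gene, held 37 CpGs. H3K27me3 peaks touched the *Sfrp2* and *Tcf7* windows in 3 of 5 controls and 0 of 5 K27M libraries. They touched the *Rspo4* window in 5 controls and 4 K27M libraries and the *Dkk1* window in 4 and 3. At *Fzd7* the H3K27me3 peaks lay elsewhere in the promoter, and none touched the printed window. H3K4me3 peaks touched the *Dkk1*, *Sfrp2* and *Tcf7* windows in all 10 libraries. The Tcf/Lef motif CTTTGAT or CTTTGAA, searched on both strands, occurred in 3 of the 38 RefSeq promoters of these genes (7.895%), *Dkk1* among them, and in 7.479% of all 32851 RefSeq promoters of the same length.

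In control cultures, most Wnt family promoters lay under H3K27me3. A peak was present in every brainstem control at 30 of 46 genes, against 15.9% of all protein-coding genes, and in every telencephalon control at 27 of 46, against 9.67%. The ligands carried the mark most often, at 16 of 18 genes in brainstem controls and 14 of 18 in telencephalon controls. The receptors carried it at 4 of 10 genes in both regions. The antagonists carried it at 5 of 10 in both regions, and the R-spondin branch at 4 of 5 and 3 of 5. Of *Lef1*, *Tcf7* and *Axin2*, only *Lef1*, a partner of beta-catenin on DNA, had a peak in every control.

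These peaks were largely kept in K27M. In the brainstem, all 30 genes marked in both controls had a peak in both K27M cultures, whereas 58.0% of all genes marked in both controls did. In the telencephalon, 22 of 27 genes marked in every control had a peak in every K27M culture, against 61.6% of all genes. The others, *Fzd7*, *Fzd10*, *Dkk2*, *Rspo2* and *Rspo4*, lacked a peak only in K27M culture 59, which had the fewest peaks. Loss from every K27M culture was seen at 0 of the 30 brainstem genes, against 31.5% of all genes marked in both brainstem controls, and at 0 of the 27 telencephalon genes, against 14.8%. Counted over all genes, a peak in every K27M culture was found at 9.58% for the brainstem and 6.29% for the telencephalon, and among the Wnt family genes at 30 and 22 of 46. No gene of the 46 had a peak in more K27M than control cultures of either region, against 0.925% of all genes in brainstem and 0.383% in telencephalon cultures. This did not hold for stricter peaks: at a fold enrichment of at least 3, *Wnt7b* and *Frzb* in the brainstem and 8 genes in the telencephalon (*Wnt2b*, *Wnt4*, *Wnt6*, *Wnt10b*, *Wnt11*, *Fzd2*, *Sfrp1* and *Rspo1*) had a peak in more K27M than control cultures. At each of the 8 telencephalon genes named, control 59 was the only control under that fold, with a highest fold of 2.05 to 2.82. At that setting 8 genes had a peak in every telencephalon control, culture 59 included, and 15 in every telencephalon K27M culture.

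The marked Wnt family promoters were also covered more widely in controls than those of other marked genes. Among genes with a peak in every control, the median covered share was 90.3% for the 30 Wnt family genes and 41.7% for all 3478 genes in the brainstem, and 87.1% for 27 genes and 56.7% for all 2122 in the telencephalon. In K27M, the corresponding medians were 69.8% for the Wnt family and 12.4% for all genes of the brainstem, and 72.0% and 27.8% for those of the telencephalon. When only genes with a mean control share of at least 50% were counted, a peak in every K27M culture was found at 25 of 25 Wnt family genes and 80.4% of all such genes in the brainstem, and at 19 of 22 and 76.2% in the telencephalon. The gap to the other genes was thus smaller among promoters that were widely covered to begin with. The 3 telencephalon exceptions were *Fzd10*, *Rspo2* and *Rspo4*.

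Culture by culture, the number of the 46 genes with a peak was lower in K27M in 4 of 5 pairs. In the brainstem it was 38 in control 59 and 30 in its K27M partner, and 31 in both members of pair 61. In the telencephalon it was 27 and 22 in pair 59, 40 and 33 in pair 60, and 39 and 34 in pair 61. The mean difference was -5.0 ± 3.08 genes (SD, n = 5 pairs). Among genes marked in a control library, 85.4% ± 7.04 of the Wnt family genes and 47.7% ± 13.4 of all genes were also marked in the K27M partner (mean and SD over 5 pairs). The share of the Wnt family was the larger one in each of the 5 pairs.

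**Figure D1:**
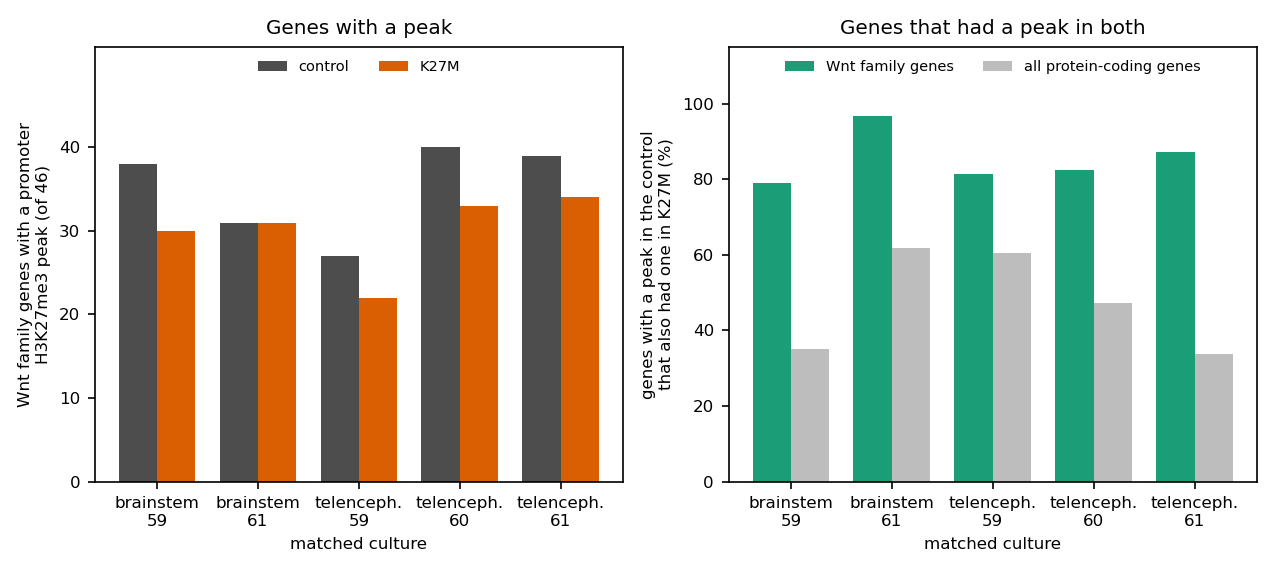
Left, number of the 46 Wnt family genes with an H3K27me3 peak in the promoter in each control (grey) and K27M (orange) library; right, percentage of genes marked in the control library that were also marked in its K27M partner, for the Wnt family (green) and all protein-coding genes (light grey). The green bars, 78.9% to 96.8%, exceed the grey ones, 33.8% to 61.8%, in every pair.

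A core of 22 genes had an H3K27me3 peak in all 10 libraries, against 5.8% of all genes. It held 14 of 18 ligands (*Wnt2b*, *Wnt3*, *Wnt3a*, *Wnt4*, *Wnt5a*, *Wnt6*, *Wnt7b*, *Wnt8b*, *Wnt9a*, *Wnt9b*, *Wnt10a*, *Wnt10b*, *Wnt11* and *Wnt16*), 2 of 10 receptors (*Fzd2* and *Fzd6*), 4 of 10 antagonists (*Sfrp1*, *Sfrp5*, *Dkk1* and *Wif1*), *Rspo1* and *Lef1*. Without telencephalon culture 59 the core held 30 genes. At 5 genes every promoter base was covered in all 10 libraries, against 0.93% of all genes: the ligands *Wnt3*, *Wnt3a* and *Wnt9b*, the antagonist *Sfrp1* and *Lef1*. *Wnt3* and *Wnt9b* are neighbours on chromosome 11, 24.33 kb apart, as are *Wnt3a* and *Wnt9a*, 16.18 kb apart, but no single peak spanned both promoters of either pair in any library. At *Wnt6* and *Wnt10a*, 6.19 kb apart on chromosome 1, 1 peak covered both in 3 libraries, so their values are not fully separate.

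The other end of the family held 6 genes with no H3K27me3 peak in any library, against 63.5% of all genes. The receptors *Fzd1*, *Fzd3* and *Fzd8* and the R-spondin receptor *Lgr5* had H3K4me3 peaks in all 10 libraries. The ligand *Wnt8a* and the antagonist *Dkk4* had no peak of either mark in any library. A further 6 genes, *Wnt7a*, *Fzd4*, *Fzd9*, *Sfrp4*, *Tcf7* and *Axin2*, had H3K27me3 peaks in some controls and in no K27M library, against 22.3% of all genes. *Axin2*, a feedback inhibitor and widely used readout of Wnt signalling, was covered at 10.2% and 7.78% of its promoter bases in telencephalon controls 60 and 61 and at 0 in the other 8 libraries. *Wnt7a*, a ligand made by neural cells, was covered at 18.1% in brainstem control 59, at 20.3% and 25.4% in telencephalon controls 60 and 61, and at 0 elsewhere.

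**Figure D2:**
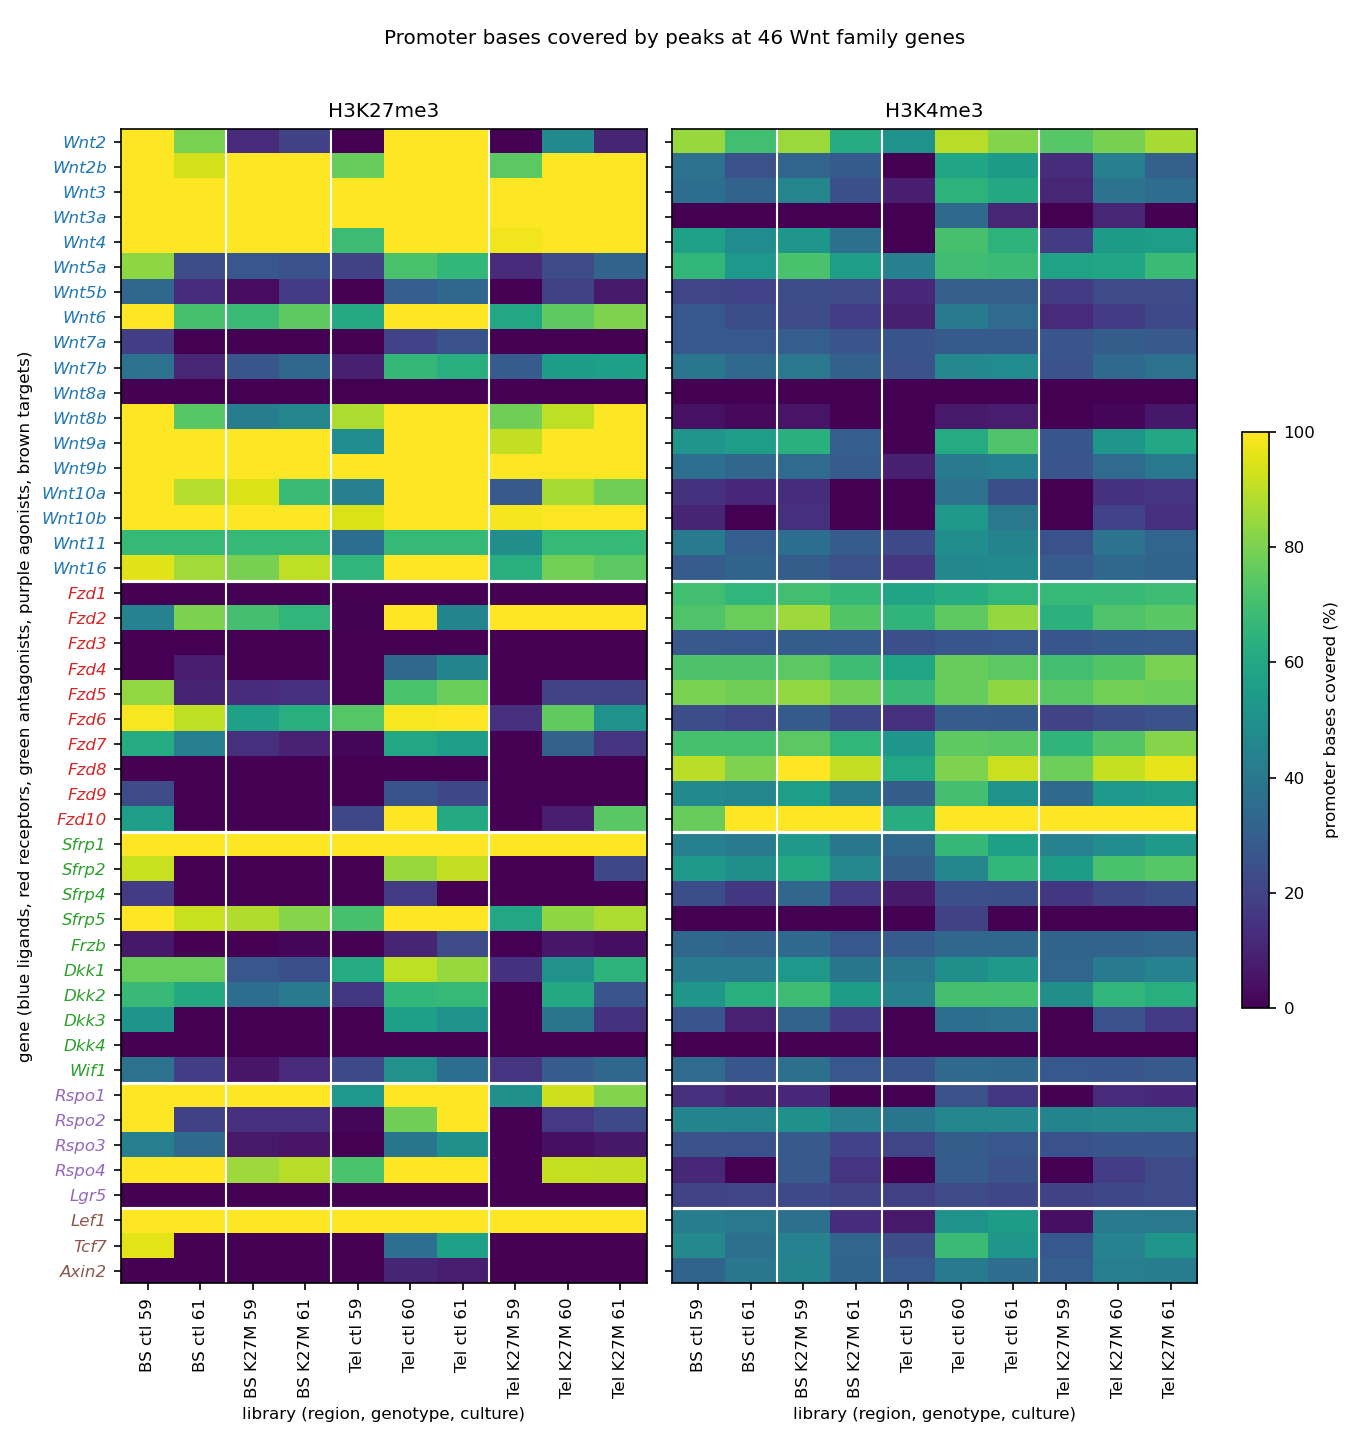
Percentage of promoter bases under H3K27me3 (left) and H3K4me3 (right) peaks for each of the 46 genes (rows, grouped by role and coloured as on the axis) in each library (columns; BS brainstem, Tel telencephalon, ctl control). *Wnt3*, *Wnt3a*, *Wnt9b*, *Sfrp1* and *Lef1* are at 100% for H3K27me3 in every column, whereas *Fzd1*, *Fzd3* and *Fzd8* are empty for H3K27me3 and marked by H3K4me3 throughout.

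The covered share told apart promoters that kept a peak over their whole width from those where it shrank. Of 40 genes with any H3K27me3, 9 had a lower share in K27M in all 5 pairs, against 12.7% of all 8005 genes tested, and 0 had a higher share in all 5, against 0.0999%. Among the 22 genes of the core, 5 were lower in all pairs, against 31.5% of all 1272 genes with a peak in every library. The 9 genes were 1 of 17 ligands (*Wnt10a*), 2 of 7 receptors (*Fzd6* and *Fzd7*), 4 of 9 antagonists (*Sfrp5*, *Dkk1*, *Dkk2* and *Wif1*) and 2 of 4 genes of the R-spondin branch (*Rspo2* and *Rspo4*). The exact sign-flip permutation test (two-sided) over 5 pairs cannot give a p under 0.062, and with Benjamini-Hochberg adjustment over all genes the adjusted p of these 9 was 0.413. The median change was -13.2 percentage points over the 40 genes and -8.57 over all genes tested. No gene of the 46, and none of all genes, reached an unadjusted p under 0.05. Permuting genotypes within regions without the pairs, which allows lower p values, gave an unadjusted exact p under 0.05 at 2 of 40 genes (5.0%), *Fzd6* and *Dkk1*, against 7.608% of all genes, and no adjusted p under 0.298 among the 40.

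*Dkk1* (chromosome 19, 30545863 to 30549665, mm10, minus strand), which binds the Lrp5 and Lrp6 co-receptors and blocks canonical signalling, showed an even loss in the brainstem. Its covered share was 77.7% and 77.6% in brainstem controls 59 and 61 and 26.97% and 24.4% in their K27M partners. In the telencephalon it was 61.4%, 90.3% and 84.5% in controls 59, 60 and 61 and 14.6%, 50.7% and 64.5% in K27M. The genotypes did not overlap in the brainstem but did in the telencephalon, where K27M culture 61 exceeded control 59, and the mean change was -42.1 ± 13.4 percentage points (SD, n = 5 pairs).

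*Fzd6* (chromosome 15, 39006034 to 39038188, plus strand), a receptor best known for planar polarity, was covered at 99.1% and 90.2% in brainstem controls 59 and 61 and at 57.1% and 63.1% in K27M. The telencephalon shares were 73.4%, 98.9% and 100% in controls 59, 60 and 61 and 13.5%, 75.7% and 51.2% in K27M. The mean change was -40.2 ± 15.2 points, with no overlap of genotypes in the brainstem.

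*Fzd7* (chromosome 1, 59482424 to 59486955, plus strand), a receptor found in many stem cells, fell from 61.5% and 42.7% in the brainstem controls to 13.4% and 9.20% in K27M. In the telencephalon its shares were 1.77%, 59.9% and 55.7% in controls and 0, 30.6% and 15.4% in K27M, so that pair 59 started near 0 and added little. The mean change was -30.6 ± 17.6 points, and it was -12.1 points over the narrower window of 1000 bp to each side of the start and -8.07 points with equal numbers of peaks from each library.

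*Rspo2* (chromosome 15, 43020794 to 43170826, minus strand) and *Rspo4* (chromosome 2, 151842927 to 151874668, plus strand) encode secreted R-spondins. *Rspo2* was covered at 100% and 19.2% in brainstem controls 59 and 61 and at 13.6% and 13.9% in K27M, and at 1.83%, 78.4% and 100% in the telencephalon controls and 0, 16.6% and 22.1% in K27M. Its mean change was -46.6 ± 40.3 points, and the pairs differed widely because control 61 of the brainstem and control 59 of the telencephalon were already low. *Rspo4* fell from 100% in both brainstem controls to 85.2% and 89.1%. In the telencephalon *Rspo4* was at 71.8%, 100% and 100% in controls 59, 60 and 61 and at 0, 91.4% and 90.6% in K27M, so pair 59 supplied most of its mean change of -23.1 ± 27.3 points.

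**Figure D3:**
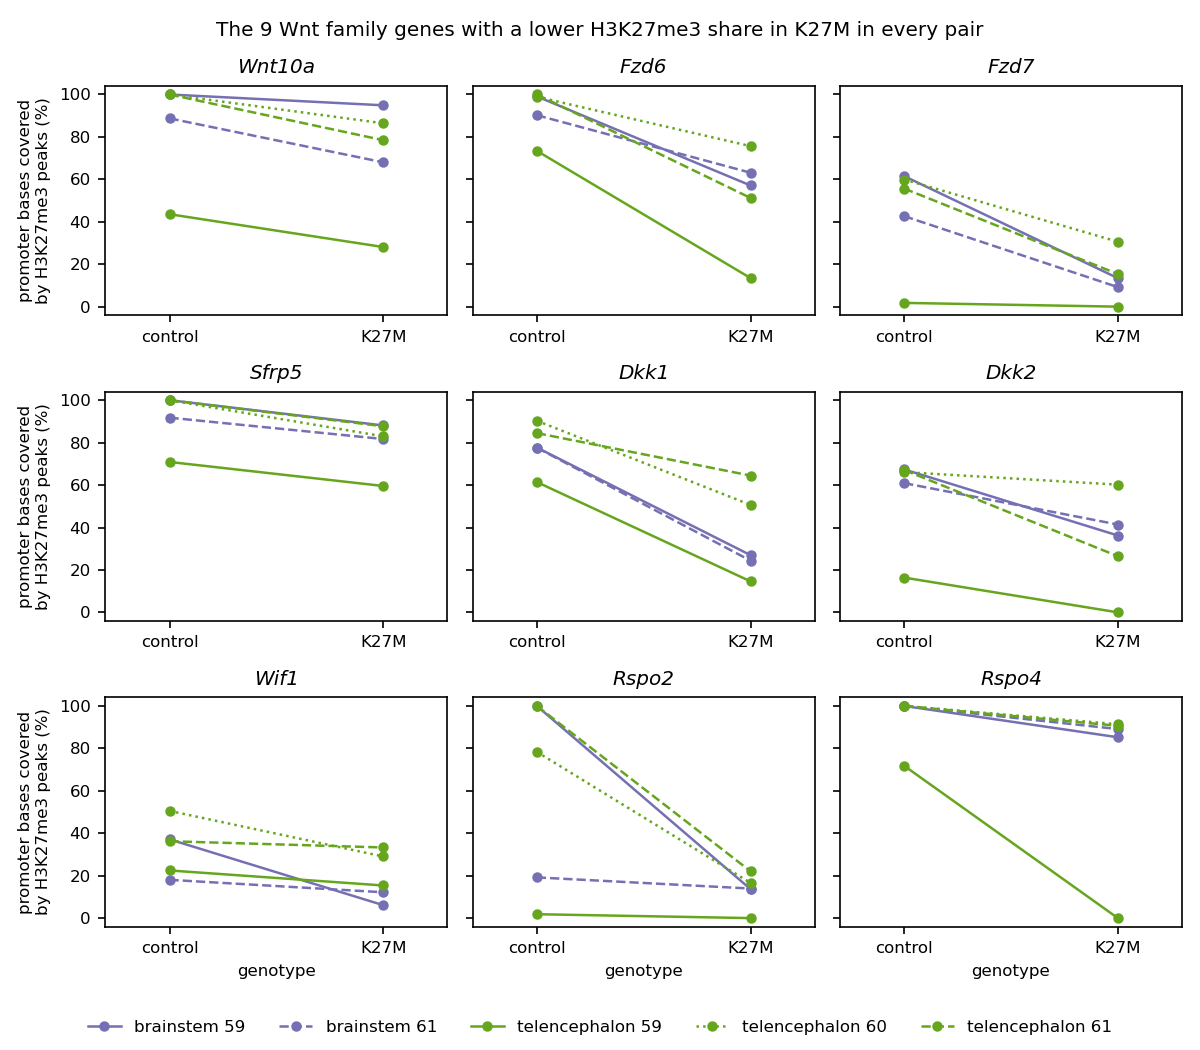
Percentage of promoter bases under H3K27me3 peaks in control and K27M for the 9 genes with a lower share in K27M in all 5 pairs; each line joins 1 matched pair, purple for brainstem and green for telencephalon. *Dkk1* and *Fzd6* drop in every pair by at least 20 points, whereas *Sfrp5* stays above 50% in all 5 K27M libraries.

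The other 4 genes changed less. *Dkk2*, a further co-receptor antagonist, changed by -22.7 ± 13.5 points, *Wnt10a* by -15.3 ± 6.62, *Wif1*, a ligand-binding inhibitor, by -13.7 ± 12.1 and *Sfrp5* by -12.5 ± 2.66. No gene rose in all 5 pairs. *Wnt2*, a ligand that was at 0 in both libraries of telencephalon pair 59, had the lowest mean change of the family, -58.0 ± 36.4 points: 100% and 79.8% in the brainstem controls against 12.1% and 19.3% in K27M, and 0, 100% and 100% in the telencephalon controls against 0, 47.8% and 10.3% in K27M. At the opposite end, *Fzd2*, a receptor, had the highest mean change, 33.2 ± 45.5 points, with 0.53%, 100% and 45.0% in the telencephalon controls and 100% in all 3 K27M cultures. In the brainstem *Fzd2* did not move in one direction, with 44.5% and 80.2% in controls and 70.4% and 65.7% in K27M.

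Within regions, 12 of 39 genes were lower in both brainstem pairs, against 37.3% of all genes tested there, and 13 of 40 were lower in all 3 telencephalon pairs, against 19.0%. Both lists held the 9 genes above. *Wnt2*, *Wnt8b* and *Rspo3* were added in the brainstem and *Wnt5a*, *Wnt6*, *Wnt16* and *Rspo1* in the telencephalon. Whether the response differed between the regions was not tested.

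For a promoter that keeps its peak, the authors also give the peak's fold enrichment over input. It is a single value for a broad peak and was not separated from the width of that peak, so it is not read as a height. Among the 22 core genes, the highest fold was higher in K27M in all 5 pairs at 11 genes, against 42.2% of all 1272 genes with a peak in every library. These were 8 ligands (*Wnt2b*, *Wnt3a*, *Wnt4*, *Wnt6*, *Wnt9a*, *Wnt9b*, *Wnt10b* and *Wnt11*), *Sfrp1*, *Sfrp5* and *Lef1*. *Lef1* went from 7.89 and 8.52 in the brainstem controls to 23.4 and 28.3 in K27M, and from 3.36, 14.2 and 9.52 in the telencephalon controls to 7.32, 23.8 and 24.7. *Wnt3a* went from 6.40 and 6.34 to 17.9 and 19.8 in the brainstem and from 3.53, 9.88 and 5.52 to 4.76, 15.0 and 19.8 in the telencephalon. *Dkk1*, in contrast, stood at 4.11 and 3.41 in the brainstem controls and 3.00 and 3.75 in K27M. The median ratio of K27M to control over the 22 genes ranged from 1.05 in telencephalon pair 60 to 1.91 in brainstem pair 61, and over all 1272 genes from 0.973 to 1.72 in the same pairs. Fold enrichment is relative to the other reads of a library and peaks were called without the added Drosophila chromatin. A higher fold therefore does not measure more H3K27me3 per cell, nor a taller peak.

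**Figure D4:**
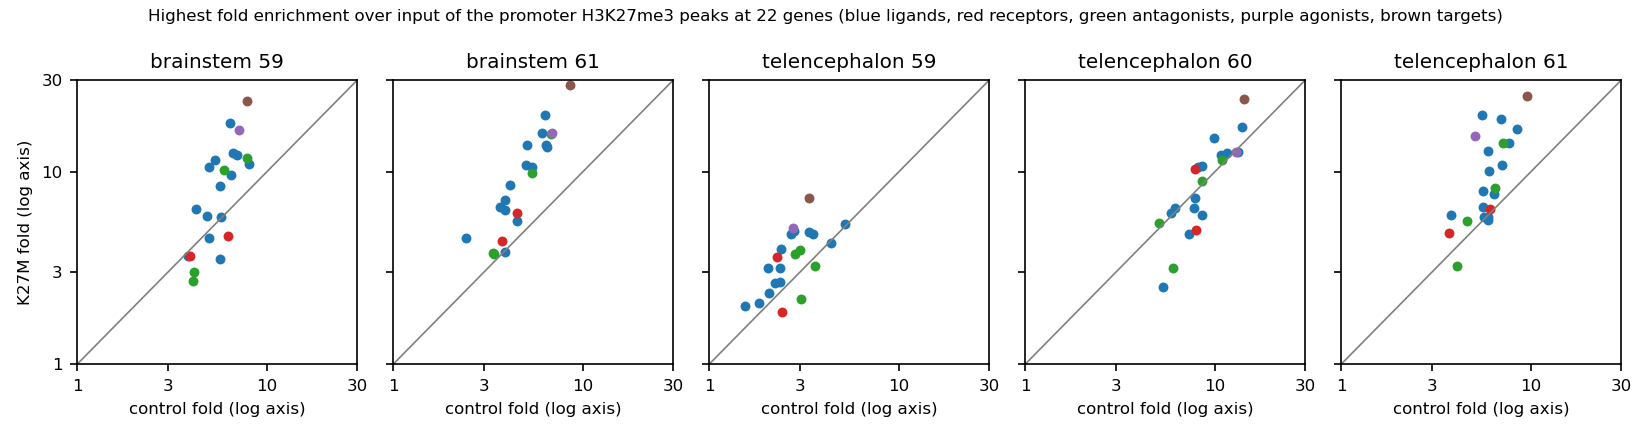
Highest fold enrichment over input of the promoter H3K27me3 peaks of the 22 genes marked in all 10 libraries, in control (horizontal, log axis) and K27M (vertical, log axis), with 1 panel per matched pair and the line of equal values in grey; *Lef1* is the brown point. Between 13 genes (telencephalon 60) and 21 genes (brainstem 61) lie above the line.

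In each of the 5 pairs, coverage fell by a larger proportion between 2 and 10 kb from the start sites than within 2 kb. Within 2 kb of the outermost start of each gene, H3K27me3 peaks covered 69.6% and 51.7% of positions in brainstem controls 59 and 61 and 42.8% and 44.0% in their K27M partners, averaged over the 46 genes. Between 2 and 10 kb the values were 31.1% and 16.2% in controls 59 and 61 and 10.9% in both K27M cultures. In the telencephalon, positions within 2 kb were covered at 39.5% to 71.6% in controls and 35.6% to 51.9% in K27M, and positions from 10 to 20 kb at 4.17% to 16.95% and 3.49% to 6.54%. Control 59 of the telencephalon lay within the K27M range in both zones.

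**Figure D5:**
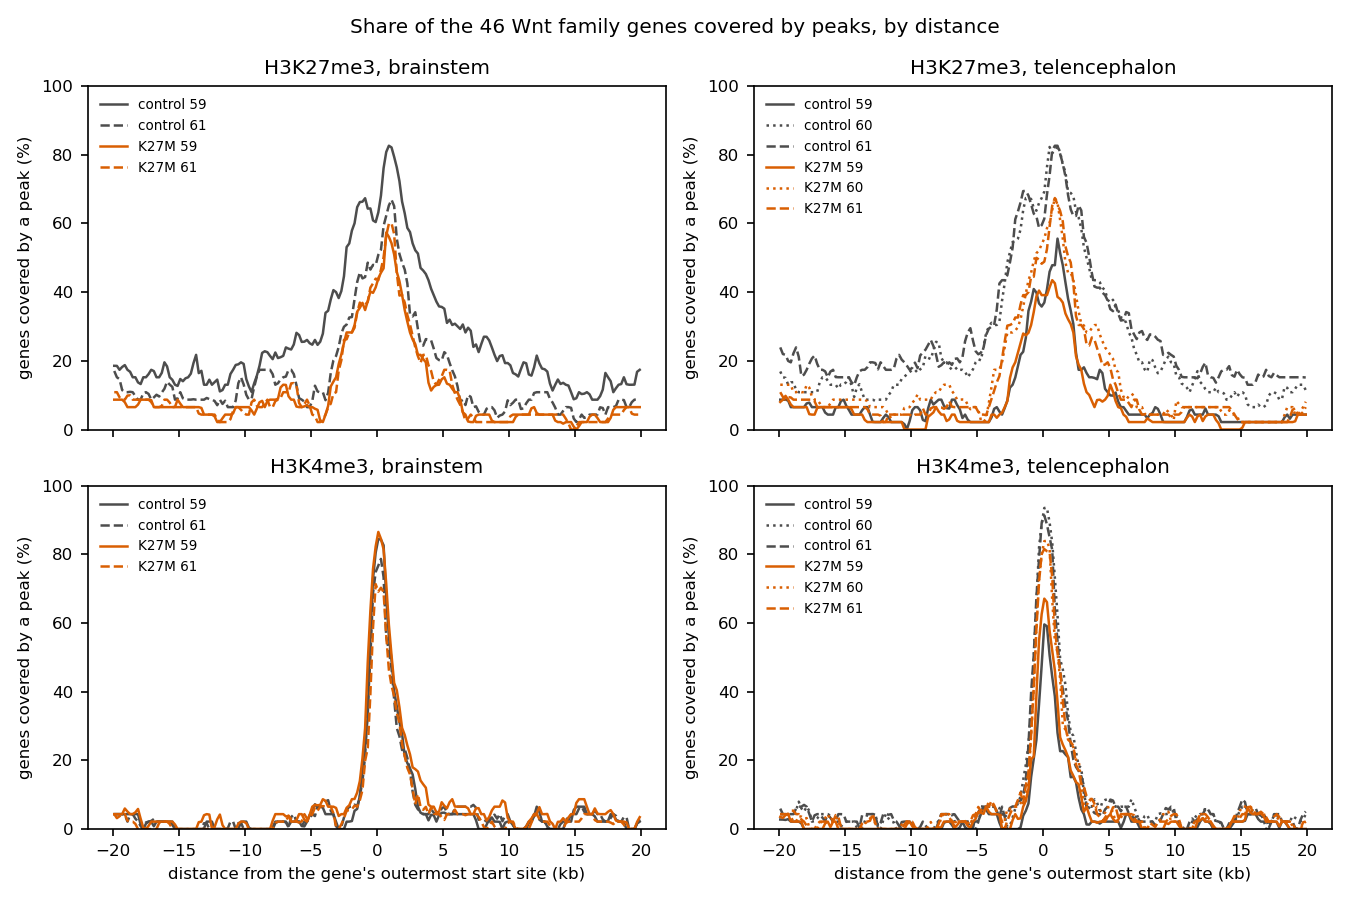
Percentage of the 46 genes covered by a peak at each distance from the gene's outermost start site, in 200 bp bins out to 20 kb on each side, for H3K27me3 (top) and H3K4me3 (bottom) in the brainstem (left) and telencephalon (right); grey lines are controls, orange lines K27M. Averaged over 2 to 10 kb, every K27M curve lies below its own control for H3K27me3, and H3K4me3 forms a narrow peak in all libraries.

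Promoter states were then set from consensus peaks of the controls, where a peak had to be supported in at least 2 cultures. By this rule 26 of 46 genes were bivalent in the brainstem, against 9.32% of all genes, and 36 in the telencephalon, against 14.5%. Another 14 and 7 genes had H3K4me3 only, 4 and 1 had H3K27me3 only, and *Wnt8a* and *Dkk4* had neither mark in both regions. Bivalency held for 13 and 16 of the 18 ligands and for 5 and 7 of the 10 receptors. The antagonists were bivalent at 4 and 7 of 10 genes. The rule asked for 2 of 3 cultures in the telencephalon and 2 of 2 in the brainstem. Without telencephalon culture 59 the telencephalon count was again 36. With culture 60 or culture 61 left out, so that culture 59 had to carry the marks, or with both marks required in every control, it was 17, below that of the brainstem.

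The state differed between regions at 10 genes, or 21.7%, against 9.31% of all genes. By the consensus rule, *Wnt7b*, *Fzd4*, *Fzd9*, *Sfrp2*, *Frzb*, *Dkk3* and *Tcf7* had H3K4me3 only in the brainstem and were bivalent in the telencephalon. *Wnt3a*, *Wnt10b* and *Rspo4* had H3K27me3 only in the brainstem and were bivalent in the telencephalon. *Wnt7b*, a ligand with roles in brain blood vessels, was covered by H3K27me3 at 37.4% and 10.8% in brainstem controls 59 and 61 and at 8.69%, 66.5% and 63.0% in telencephalon controls 59, 60 and 61. In K27M its brainstem shares were 26.9% and 33.6% and its telencephalon shares 28.8%, 54.9% and 56.7%, so it kept the mark in all 10 libraries. Its brainstem state of H3K4me3 only was thus not an absence of H3K27me3 peaks. The rule asks for consensus peaks of both marks over the same promoter, and otherwise H3K4me3 takes priority. *Fzd4*, the receptor of the vascular ligand norrin, was covered at 0 and 7.47% in the brainstem controls and at 0, 34.0% and 45.1% in the telencephalon controls, and at 0 in all 5 K27M libraries. Its promoter overlaps that of *Tmem135*, so its peaks cannot be assigned to one gene. *Sfrp2* was covered at 91.5% and 0 in the brainstem controls, at 0, 84.6% and 90.8% in the telencephalon controls, and in K27M only in telencephalon culture 61, at 21.7%.

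*Tcf7* had 95.9% and 0 in the brainstem controls, 0, 36.6% and 57.1% in the telencephalon controls and 0 in every K27M library. *Dkk3*, a member of the Dickkopf family that does not act on the co-receptors like the others, had 51.7% and 0 in the brainstem controls and 0, 56.5% and 51.3% in the telencephalon controls, and was left with 38.7% and 14.3% in telencephalon K27M cultures 60 and 61. *Fzd9* had 22.7% and 0 in the brainstem controls, 0, 26.03% and 21.8% in the telencephalon controls and 0 in every K27M library. *Frzb*, which binds ligands, had 6.58% and 0 in the brainstem controls and 0, 10.25% and 22.85% in the telencephalon controls, and its K27M shares were 0 and 1.85% for brainstem and 0, 6.23% and 3.63% for telencephalon cultures. At *Fzd4*, *Sfrp2*, *Tcf7*, *Dkk3*, *Fzd9* and *Frzb* a brainstem control with H3K27me3 stood beside one without it. The same held for H3K4me3 at *Wnt10b* (10.2% and 0 in brainstem controls 59 and 61) and *Rspo4* (11.4% and 0). Telencephalon control 59 was likewise at 0 for the same mark at each of these genes. The regional call there rested on the rule, which asked for 2 of 2 cultures in the brainstem but 2 of 3 in the telencephalon.

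The covered shares also differed between controls of the same region, and with so few cultures they could not resolve a regional difference. None of the 40 genes had control shares in one region that lay wholly above those of the other, against 0.613% of all 7990 genes higher in the telencephalon and 2.32% higher in the brainstem. The exact permutation test of 3 against 2 cultures (two-sided) cannot give a p under 0.1, and its adjusted p was 1.0 for all 40. Without telencephalon culture 59, control shares were higher in the telencephalon without overlap at 8 of 40 genes, against 19.6% of all genes, and without brainstem culture 59 at 3 of 40, against 4.33%.

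Leaving out a culture likewise decided which genes counted as having lost the mark. With brainstem culture 61 left out, 8 of 38 genes marked in the remaining control had no peak in K27M (*Wnt7a*, *Fzd9*, *Fzd10*, *Sfrp2*, *Sfrp4*, *Frzb*, *Dkk3* and *Tcf7*), against 65.0% of all genes. With brainstem culture 59 left out it was 1 of 31, *Fzd4*, against 38.2%. With telencephalon culture 59 left out it was 5 of 39 (*Wnt7a*, *Fzd4*, *Fzd9*, *Tcf7* and *Axin2*), against 46.3%. In each of these settings the share of Wnt family genes that lost the mark was below that of all genes.

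H3K4me3 was present at 33 of 46 promoters in all 10 libraries, against 58.1% of all genes. All 10 receptors and *Lef1*, *Tcf7* and *Axin2* carried it throughout, as did 10 of 18 ligands, 7 of 10 antagonists and 3 of 5 genes of the R-spondin branch. Telencephalon control 59 had the fewest of the 46 genes with a peak, 33. The ligands *Wnt2b*, *Wnt4* and *Wnt9a* lacked a peak in that library only, and *Dkk3* only in the 2 libraries of that culture. The number of genes with a peak ranged from 33 to 44 over the controls and from 36 to 43 over K27M, and differed between the genotypes by -0.2 ± 1.92 genes (SD, n = 5 pairs). In covered share, 1 of 44 genes was lower in K27M in all 5 pairs, *Lef1*, against 0.705% of all genes, and 2 were higher, *Fzd3* and *Fzd8*, against 5.49%. The adjusted p of all 3 was 0.836 by the exact sign-flip permutation test. *Lef1* was covered at 42.3% and 39.9% in the brainstem controls against 37.0% and 12.8% in K27M, and at 6.84%, 51.2% and 55.4% in the telencephalon controls against 4.15%, 40.3% and 39.98%.

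The telencephalon pairs did not move alike for H3K4me3. In pairs 60 and 61, 29 of 44 genes had a lower share in K27M in both, against 29.0% of all genes, and 15 of them were ligands. The H3K4me3 fold enrichment was lower in K27M in both pairs also at *Fzd1*, *Fzd3*, *Fzd8* and *Lgr5*, which had no H3K27me3 peak. At *Fzd1* it was 103.2 and 81.4 in controls 60 and 61 and 42.8 and 35.0 in K27M, while its covered share was not lower. The part of such differences between libraries in the lower shares was not tested. The mean share over the 46 genes was 47.8% in control 60 and 39.8% in its K27M partner, and 45.7% and 40.85% in pair 61, while the mean over all genes stayed at 23.2% and 23.0% in pair 60 and 23.7% in both libraries of pair 61. In pair 59 the mean was higher in K27M, 29.8% against 23.0%, and all 3 telencephalon pairs were lower at *Fzd2*, *Dkk1* and *Lef1* only, 3 of 44 genes, against 2.62% of all genes. *Wnt10b*, a ligand, went from 54.3% to 20.2% and from 39.7% to 13.9% in pairs 60 and 61 and was at 0 in both libraries of pair 59. *Wnt3* went from 64.5% to 37.9% and from 60.2% to 35.6%, and from 8.53% to 10.8% in pair 59. In the brainstem, 8 of 42 genes were lower in both pairs, against 14.2% of all genes: *Wnt4*, *Wnt6*, *Wnt9b*, *Wnt10a*, *Wnt11*, *Rspo1*, *Lef1* and *Tcf7*.

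Other components of the pathway were counted by the same rules. Of 45 further genes (co-receptors, the destruction complex, Dishevelled, secretion and polarity genes), 45 had H3K4me3 in every brainstem culture and 42 in every telencephalon culture. Over all genes, 58.1% had H3K4me3 in all 10 libraries. Every brainstem control had H3K27me3 at 14 of the 45, against 15.9% of all genes, and every telencephalon control at 8, against 9.67%. By the consensus rule 14 were bivalent in the brainstem, against 9.32% of all genes, and 15 in the telencephalon, against 14.5%. The mark was lost from both brainstem K27M cultures at 5 of the 14, against the 31.5% of all genes given above: the receptor *Ror2*, *Porcn*, which acylates the ligands, the Dickkopf receptor *Kremen1*, the inhibitor *Apcdd1* and the polarity gene *Celsr2*. It was lost from all 3 telencephalon K27M cultures at 2 of the 8, against 14.8% of all genes: the kinase gene *Csnk1a1* and *Ctnnb1*, which encodes beta-catenin. These losses count any peak that overlapped a promoter in each library. By the consensus rule, the control state was H3K4me3 only at *Ror2* in the brainstem and at *Csnk1a1* and *Ctnnb1* in the telencephalon. Every K27M culture of both regions had an H3K27me3 peak at *Lgr6*, *Notum*, *Nkd2*, *Sp5*, *Celsr1*, *Celsr3* and *Daam2*. Over all genes, every K27M culture had such a peak at 9.58% for the brainstem alone and 6.29% for the telencephalon alone. Over both regions, 3 of 30 were lower in covered share in all 5 pairs, *Ror2*, *Csnk1a1* and *Daam2*, against 12.7% of all genes, and 0 were higher.

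CpG density was counted over the same promoters. The 22 genes with H3K27me3 in all 5 K27M libraries had a median of 3.96 CpGs per 100 bp (range 1.5 to 6.9), and the 12 with it in 1 to 4 K27M libraries had 3.25. The 6 genes marked in controls only had a median of 4.51, and the 6 never marked had 2.53. Over all genes the order was different, with medians of 3.00, 2.16, 1.55 and 1.76 CpGs per 100 bp in the same classes. The 6 genes marked in controls only were spread widely: *Fzd9* had 5.90, *Tcf7* 5.72 and *Fzd4* 5.17 CpGs per 100 bp, whereas *Axin2* had 3.85, *Wnt7a* 3.24 and *Sfrp4* 2.15. These medians are a description of few genes and were not tested.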

How the data were processed

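H3K27me3 and H3K4me3 ChIP-seq peak lists of 20 OPC libraries were used. Per the labels and the study's methods, reads were mapped with BWA 0.7.17-r1188 to mm10 by the authors, who dropped those in blacklisted regions and ran MACS2 2.2.7.1 on every library with its matched input, in broad mode for H3K27me3 and narrow mode for H3K4me3. No libraries were pooled, and the spike-in was left out of peak calling. Each deposited peak has a fold enrichment over input, a ratio, and p-values and q-values as −log10. The deposited integer score was not used.

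Promoters were the 2000 bp before and 1000 bp after every GENCODE M21 start of the 21938 protein-coding genes (GRCm38, the assembly of mm10), and 1 bp of overlap counted as a peak. Consensus peaks followed the MSPC rule in at least 2 cultures. Its stringent and weak p-values were 1e-08 and 1e-04 in the H3K27me3 data, whereas those of H3K4me3 were 1e-10 and 1e-06. Covered shares were compared within the 5 matched pairs by an exact sign-flip permutation test, and between regions by an exact permutation test, with Benjamini-Hochberg adjustment over all genes covered in at least 1 library. The labels give both partners the same culture number. In its ChIP-seq promoter tests the study took matched cultures into account where it could, and its RNA-seq model included culture. To check this, each library's H3K27me3 shares were taken as deviations from its group mean, and partners correlated at r = 0.59 (telencephalon 59), 0.369 (60), -0.075 (61) and -0.111 (brainstem). The H3K4me3 values were 0.756, 0.44, 0.547 and 0.062, all across genes, which are not independent replicates. The p-values measure the spread between cultures.

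Analyses used scipy 1.17.1 and numpy 2.4.6 under Python 3.11.15, and the share, consensus and permutation steps were tested on simulated data. Genes with per-culture values were those whose control state differed between regions (the 8 with the largest difference in mean share), the 5 largest falls with one sign in all pairs, and any that lost or gained the mark. *Wnt2*, *Fzd2*, *Axin2*, *Wnt7a*, *Lef1*, *Wnt3*, *Wnt3a* and *Wnt10b* were added after their values were seen. The members and lists were chosen with earlier results of these data known. Alternatives were stricter peaks (−log10 q or fold enrichment of at least 3), 500 bp of overlap, a promoter of 1000 bp to each side, basic transcripts, equal numbers of peaks, no pairing, other measures and each culture left out. Counts restricted to 1 region, to 2 cultures or to widely covered genes, and the shares of all genes with a culture left out, were added after the data were seen.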

Additional observations from a re-analysis of the deposited data

How the results depend on the processing

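The exact sign-flip test over 5 pairs cannot give a p under 0.05, and presence of a peak depends on signal over input, which the peak lists do not separate from depth. No H3K27me3 below the caller's threshold was measured. With peaks limited to a fold enrichment of at least 3, 8 genes had H3K27me3 in every telencephalon control but 15 in every telencephalon K27M culture, 6 in all 10 libraries and 13 had H3K4me3 in every culture, the difference per culture was -1.6 genes and 2 genes were lower in all pairs. With 500 bp of overlap, 3 genes (*Fzd7*, *Rspo2* and *Rspo3*) had lost the mark in the brainstem, and with basic transcripts 1 had (*Wnt8b*). The narrower promoter left 5 genes lower in all pairs. Equal numbers of peaks left 6 lower in all pairs, a difference per culture of -2 genes and 2 genes higher in the telencephalon than brainstem controls. *Wnt7b* (both regions) and *Frzb* (brainstem) then had a peak in more K27M than control cultures, as did *Wnt7b* in both regions at −log10 q of at least 3 and *Fzd2* in the telencephalon with 500 bp of overlap. By highest fold enrichment in place of the share, 0 genes were lower and 11 higher in all pairs. Without the pairing (no replicate block), 0 genes had K27M shares below the controls without overlap in both regions, and the difference per culture was -4.83 genes. With each culture left out in turn, genes lost in every K27M culture ranged from 0 to 8 in the brainstem and 0 to 5 in the telencephalon, genes higher in the telencephalon controls from 0 to 8, bivalent genes in the telencephalon from 17 to 36, genes lower in all pairs from 9 to 12, and genes in all 10 libraries from 22 to 30. The cause of these shifts was not tested. Brainstem bivalency could not be computed with 1 of its 2 cultures left out. Bivalency required in every control gave 26 genes in the brainstem and 17 in the telencephalon.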
